A study of Mus musculus with 4 samples.

Results

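The genes described here are those of the Kcn family, all rows of the deposited count table whose symbol begins with Kcn and a further lower-case letter, without the non-coding transcripts named after a channel. They are 91 of the 26301 rows with a gene identifier. Potassium channels are membrane proteins that let potassium ions cross the cell membrane, and they set the resting potential and end electrical signals. Voltage-gated channels open on depolarization, inward rectifiers and two-pore domain channels carry current near rest, and a further class opens on calcium or sodium, with auxiliary subunits that alter gating or traffic. Many are neuronal genes, the kind that REST, a repressor that binds the RE1 DNA element and recruits corepressors, is known to keep low outside neurons.

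RNA was compared between 2 mouse ESC lines, N6, which is wild type (WT), and N8, which is REST-/-, with 2 libraries of each. Both lines grew with LIF and serum on irradiated embryonic fibroblasts and then went through 3 passages on gelatin to lose those feeders before RNA was taken. Each genotype was 1 cell line, so an effect of REST and any other difference between N6 and N8 cannot be told apart. The labels call the libraries of a line biological replicates without describing their cultures, so a p-value here measures the spread between these libraries.

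Total counts on genes were 30953863 and 27061056 for WT, and 25461270 and 22293966 for REST-/- ESCs. Rest itself had 7908 and 6233 counts in WT against 4244 and 3890 in REST-/- ESCs (log2 fold change -0.52, SE 0.13, adjusted p = 0.526 by edgeR's quasi-likelihood test; SE, standard error), and these sums over the whole gene do not show which exons were read. The 10 ESC markers summed to 5165 and 5056 CPM in WT and 4492 and 4629 CPM in REST-/- ESCs, with 5 log2 fold changes above and 5 below 0 (median -0.042), the lowest that of Zfp42 (-1.36, adjusted p = 0.179 by the quasi-likelihood test and 1.7e-05 by edgeR's tag-wise exact test). CPM are the counts relative to library size with TMM factors of edgeR. The 8 feeder fibroblast markers summed to 29.1 and 19.3 CPM in WT and to 100.4 and 19.1 in REST-/- ESCs, so REST-/- replicate 1 stood apart, while Lum was at 0 counts throughout and Dcn at no more than 5. The 9 neuron markers, several of which are REST targets, summed to 332 and 432 CPM in WT and 462 and 560 in REST-/- ESCs. Of the 8 tested, 7 had a log2 fold change above 0 and 1 below (median 0.82). The 10 primitive endoderm markers summed to 131 and 229 CPM in WT and 297 and 362.5 in REST-/- ESCs. All 10 log2 fold changes were above 0 (median 1.08). Cubn, Pdgfra and Gata6 were called higher by the tag-wise exact test (adjusted p of 6.62e-09, 0.00322 and 0.0194). The quasi-likelihood test called none of them (adjusted p of 0.1095, 0.351 and 0.495). Bulk RNA cannot tell fewer cells of a type from less RNA per cell, and the part of other cell types in the Kcn values was not tested.

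Most Kcn genes were at a low level in ESCs, with 50 of the 91 under a mean of 1 CPM in both genotypes. Of the 91, 60 had over 10 counts in at least 1 library (65.9%, beside 61.0% of all rows), 16 had 3 counts or fewer in every library, and 5 of those were at 0 in all 4: Kcna10, Kcnj1, Kcnk9, Kcnk15 and Kcnk16. A total of 3 counts, taken as the floor for counting error, was 0.0969 and 0.112 CPM in the WT libraries and 0.116 and 0.135 CPM in the REST-/- libraries. A mean of at least 1 CPM was reached by 34 of the genes in WT and 39 in REST-/- ESCs. The 7 that were under 1 CPM in WT and at or over it in REST-/- ESCs were Kcnc1, Kcnj3, Kcnj11, Kcnj14, Kcnk3, Kcnq5 and Kcns1, and the 2 that went the other way were Kcng3 and Kcnq3. The libraries of Kcnj11, Kcns1, Kcng3 and Kcnq3 overlapped between genotypes, and Kcnq5 went only from 0.93 to 1.24 CPM. The share of all genes that crossed 1 CPM was not counted. The 56 Kcn genes with enough counts for the test had a median of 1.94 CPM over the 4 libraries, beside 21.1 CPM for all 15444 genes tested. All 35 others, 4 of which had over 10 counts in some library, have counts but no test.

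A pair of two-pore channels led the family in level. Per kb of annotated exon, Kcnk1 (TWIK-1, a weakly inwardly rectifying two-pore channel) stood at 24.2 ± 8.28 CPM per kb (SD, n = 4) and Kcnk5 (TASK-2, a two-pore channel opened by alkaline pH) at 18.5 ± 2.90 CPM per kb (SD, n = 4). Together they held between 31.8% and 43.3% of the summed CPM of the 91 genes in a library. Other members among the 8 highest per kb were Kcnh2 (the ERG1 channel of cardiac repolarization) at 4.01 ± 0.50, Kcnh3 at 3.72 ± 0.299, Kcnk6 (TWIK-2) at 2.78 ± 0.418 and Kcnj4 (Kir2.3) at 2.17 ± 0.816 CPM per kb (each SD, n = 4). Kcnk1 and Kcnk5 differed by less than the larger SD of the pair, as did Kcnh2 and Kcnh3, and Kcnk6 and Kcnj4, while Kcnk5 stood well above Kcnh2. Within a genotype the libraries of Kcnk1 were far apart, with 1008 and 1873 counts in WT against 1238 and 1612 in REST-/- ESCs. Its replicates differed by more than the genotype means did.

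**Figure D1:**
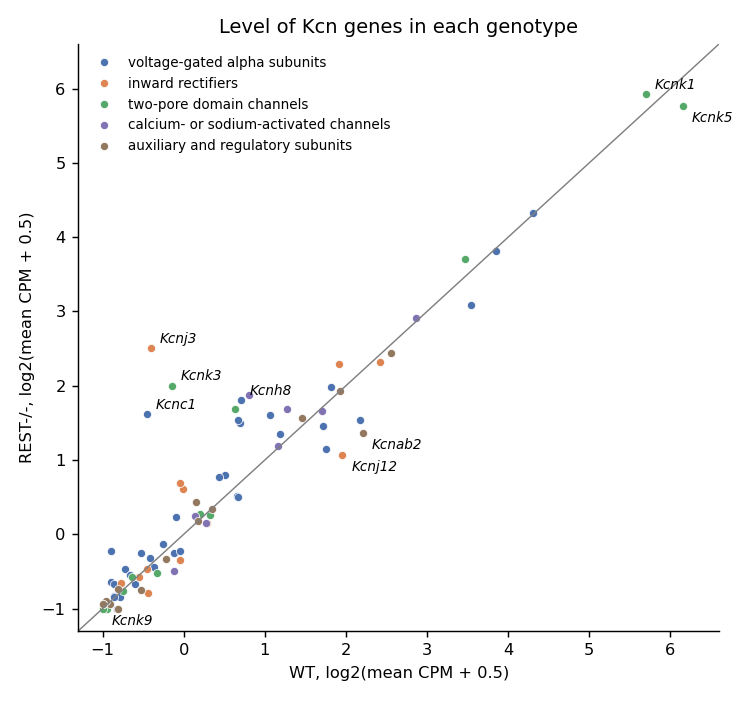
Mean level of 87 Kcn genes, with WT along the x axis and REST-/- ESCs along the y axis, both as log2(mean CPM + 0.5) over 2 libraries, with points coloured by channel class and a line of equal level. Most points lie near the line or at the low corner, Kcnk1 and Kcnk5 are at the high end, and Kcnj3, Kcnk3 and Kcnc1 lie farthest above it.

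Comparing the genotypes asks which channel RNAs differ in the ESCs labelled REST-/-. The 3 largest differences were in Kcnj3, Kcnc1 and Kcnk3, each under 0.5 CPM in WT and between 2 and 6 CPM in REST-/- ESCs. None of the 56 tested Kcn genes passed an adjusted p of 0.05 in edgeR's quasi-likelihood test, in which 0.0518% of all genes were called higher and 0.00648% lower in REST-/- ESCs. At an unadjusted p under 0.05 the same test gave 10 Kcn genes higher (17.9% of those tested, beside 3.85% of all genes) and 2 lower (3.57%, beside 2.86%). Kcnj3, Kcnc1 and Kcnk3 were the 3 called higher by edgeR's exact test with tag-wise dispersion (1.33% of all genes), by the exact test with common dispersion (1.6%) and by DESeq2 (1.17%), and 0 Kcn genes were called lower by these (0.46%, 0.628% and 0.376% of all genes). None of these fits had a block for replicate number. The calls with such a block differed and are given with the alternative settings.

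Kcnj3 encodes GIRK1 (Kir3.1), the G protein-gated inward rectifier subunit through which transmitters slow the heart and quiet neurons. Counts of 10 and 5 in WT stood against 137 and 112 in REST-/- ESCs, which is 0.255 ± 0.0964 CPM in WT and 5.18 ± 0.174 CPM in REST-/- ESCs (SD, n = 2). Both REST-/- libraries were far above both WT libraries. The log2 fold change was 4.31 ± 0.43 (SE). Its adjusted p was 0.109 in edgeR's quasi-likelihood test and 1.32e-11 in the exact test with tag-wise dispersion. The gene lies at chr2:55288381-55450556 of NCBIM37 (mm9) on the plus strand, and its exons overlap Gm17595 on the opposite strand. Whether the counting used strand is not given in the sources used here, so reads of the 2 genes may not be told apart. GIRK1 reaches the cell surface with another GIRK subunit, and those RNAs were low in both genotypes. Kcnj9 (GIRK3) had 19 and 22 counts in WT against 14 and 15 in REST-/- ESCs, Kcnj6 (GIRK2) had 2, 8, 3 and 5 counts in the same order of libraries, and Kcnj5 (GIRK4) had no more than 1. Differences between members of a subfamily were not tested.

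Kcnc1 encodes Kv3.1, a rapidly deactivating voltage-gated channel of fast-spiking neurons. Counts were 5 and 8 in WT and 61 in each REST-/- library, or 0.23 ± 0.097 and 2.56 ± 0.278 CPM (SD, n = 2). The libraries of the genotypes did not overlap, and the log2 fold change was 3.46 (SE 0.48, adjusted p = 0.185 by the quasi-likelihood test and 2.08e-06 by the tag-wise exact test). The gene is at chr7:53651867-53693745 on the plus strand. Other Kv3 genes are given beside it. Kcnc2 (Kv3.2) had 12 and 3 counts in WT against 11 and 4 in REST-/- ESCs, and Kcnc4 (Kv3.4) had 81 and 84 counts in WT against 51 and 32 in REST-/- ESCs, with a log2 fold change of -0.75 (SE 0.35) and both REST-/- libraries below WT.

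Kcnk3 encodes TASK-1, an acid-sensitive two-pore channel that helps to hold the resting potential. Its counts were 11 and 12 in WT against 90 and 78 in REST-/- ESCs, or 0.402 ± 0.0656 and 3.5 ± 0.0268 CPM (SD, n = 2). The log2 fold change was 3.11 (SE 0.37, adjusted p = 0.135 by the quasi-likelihood test and 5.39e-07 by the tag-wise exact test). The gene is at chr5:30890543-30927643 on the plus strand. Its nearest relatives, Kcnk9 (TASK-3) and Kcnk15 (TASK-5), were at 0 counts in all 4 libraries, and the floor of 3 counts is the most that such a value allows.

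**Figure D2:**
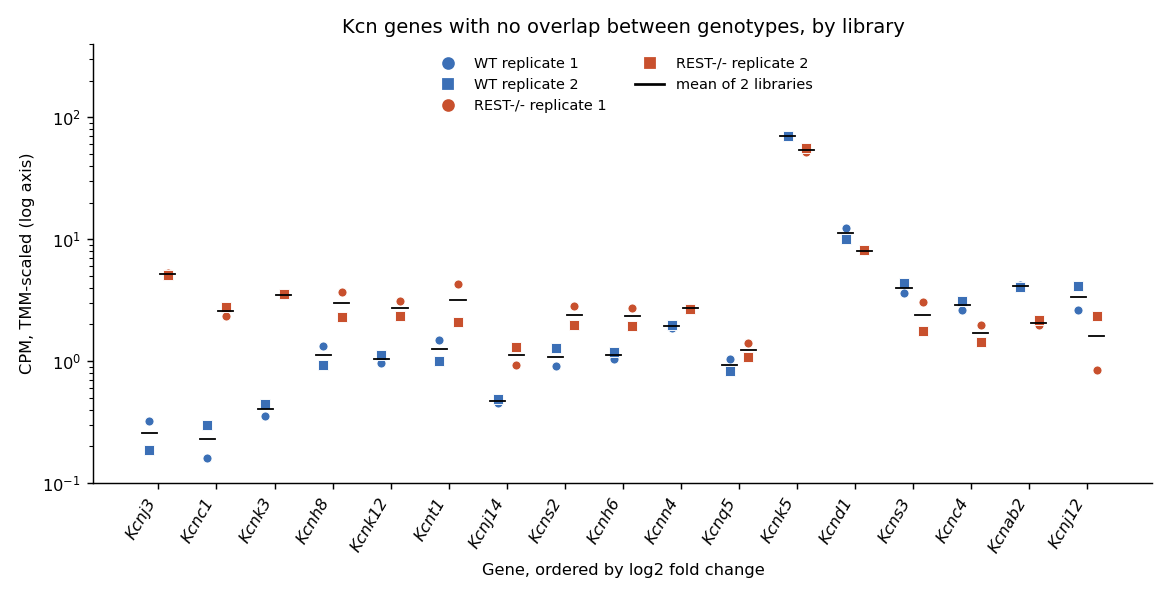
CPM in each library (log axis) of 11 Kcn genes with a positive and 6 with a negative log2 fold change, the largest among those at 0.5 CPM or more in the higher genotype whose libraries did not overlap between genotypes. Kcnj3, Kcnc1 and Kcnk3 are below 0.5 CPM in both WT libraries and above 2 CPM in both REST-/- libraries, while the REST-/- libraries of Kcnt1 and Kcnj12 are far apart.

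A wider look at libraries shows smaller differences. Both REST-/- libraries were above both WT libraries in 14 of the 56 tested Kcn genes (25%, beside 16.5% of all genes), and below them in 9 (16.1%, beside 15.4%). The log2 fold change was above 1 in 10 (17.9%, beside 3.53%) and below -1 in Kcnj12 alone (1.79%, beside 2.31%), and it was above 0 in 32 (57.1%, beside 49.2%). The median over the 56 was 0.13, beside -0.0047 over all genes tested. Leaving out WT replicate 1 gave 0.037, and leaving out WT replicate 2 gave 0.45.

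Among the voltage-gated alpha subunits, 26 of 39 were tested, and 7 were above and 4 below WT in both REST-/- libraries (beside 16.5% and 15.4% of all genes), with a median log2 fold change of 0.24. Kcnb2 (Kv2.2), a delayed rectifier, had no more than 2 counts in any library. The silent subunits of the Kcns group form no channel alone and join Kv2 subunits. Kcns2 (Kv9.2) had 28 and 34 counts in WT against 73 and 44 in REST-/- ESCs, a log2 fold change of 1.15 (SE 0.40), whereas Kcns3 (Kv9.3) had 113 and 116 in WT against 79 and 39 in REST-/- ESCs, a log2 fold change of -0.72 (SE 0.40) that was -1.17 without REST-/- replicate 1 and -0.39 without REST-/- replicate 2. Kcns2 and Kcns3 thus stood on opposite sides of WT, neither past an adjusted p of 0.05 in the quasi-likelihood test without a block. The libraries of Kcns1, the other Kcns gene, overlapped. It had 33 and 17 counts in WT against 44 and 16 in REST-/- ESCs (log2 fold change 0.51, SE 0.59).

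The Kcnh group holds the ether-a-go-go related channels. Kcnh8 (the ELK1 channel) had 41 and 25 counts in WT against 95 and 51 in REST-/- ESCs, a log2 fold change of 1.40 (SE 0.43). Kcnh6 (ERG2) had 32 counts in each WT library and 70 and 43 in REST-/- ESCs, a log2 fold change of 1.06 (SE 0.37). In both, the libraries of the genotypes did not overlap, and REST-/- replicate 1 was the highest. After scaling for depth, the more abundant members showed no such separation. Kcnh2 had 526 and 578 counts in WT against 456 and 474 in REST-/- ESCs (log2 fold change 0.018, SE 0.23) and Kcnh3 had 417 and 387 in WT against 318 and 327 in REST-/- ESCs (-0.045, SE 0.22). Kcnq5 (Kv7.5), a subunit of the M current of neurons, had 32 and 22 counts in WT against 36 and 24 in REST-/- ESCs (log2 fold change 0.42, SE 0.39), and its exons overlap Gm16705 on the opposite strand. The value was 0.23 without REST-/- replicate 1. Kcnq5 separated the genotypes only once scaled for depth, since its counts overlapped. Kcnd1 (Kv4.1), on the X chromosome, had 381 and 269 counts in WT against 206 and 179 in REST-/- ESCs, and its log2 fold change of -0.48 (SE 0.25) stood beside a median of -0.40 over the 538 X-linked genes tested. The other X-linked member tested, Kcne1l, had 19 and 16 counts in WT against 31 and 11 in REST-/- ESCs (log2 fold change 0.49, SE 0.56).

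Of the inward rectifiers, 8 of 14 were tested, with 4 log2 fold changes above and 4 below 0. Beside Kcnj3, Kcnj14 (Kir2.4) was higher in both REST-/- libraries, with 14 and 13 counts in WT against 24 and 29 in REST-/- ESCs (log2 fold change 1.24, SE 0.42, adjusted p = 0.712 by the quasi-likelihood test). Kcnj12 (Kir2.2), of the same strongly rectifying subfamily, was the member with the largest negative value, with 81 and 111 counts in WT against 22 and 52 in REST-/- ESCs (log2 fold change -1.08, SE 0.60). Its value ranged from -1.99 without REST-/- replicate 2 to -0.52 without REST-/- replicate 1, so its size depended on the library kept. Kcnj11 (Kir6.2, the pore of the ATP-sensitive channel) had 4 and 23 counts in WT against 16 and 32 in REST-/- ESCs, and its libraries overlapped although its log2 fold change was 1.07 (SE 0.97).

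Of the two-pore domain channels, 7 of 14 were tested, with a median log2 fold change of 0.24. Beside Kcnk3, Kcnk12 (THIK-2) had 30 counts in each WT library and 80 and 52 in REST-/- ESCs, a log2 fold change of 1.38 (SE 0.36, adjusted p = 0.563 by the quasi-likelihood test). Kcnk13 (THIK-1) had 3 and 5 counts in each genotype. Kcnk6 had 279 and 324 counts in WT against 313 and 287 in REST-/- ESCs, a log2 fold change of 0.25 (SE 0.26) that was 0.046 when WT replicate 1 was left out and 0.48 when WT replicate 2 was. Kcnk5 was the abundant member that was lower, with 2193 and 1888 counts in WT against 1339 and 1249 in REST-/- ESCs, or 70.7 ± 0.246 and 54.1 ± 3.23 CPM (SD, n = 2). Its log2 fold change was -0.39 (SE 0.14, adjusted p = 0.733 by the quasi-likelihood test), small in size with little spread between replicates.

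All 8 calcium- or sodium-activated channels were tested, with a median of 0.042. Kcnt1 encodes Slack, a sodium-activated channel of neurons, and had 46 and 27 counts in WT against 110 and 46 in REST-/- ESCs. The fit gave a log2 fold change of 1.34 (SE 0.50). This value fell to 0.74 when REST-/- replicate 1 was dropped and rose to 1.76 when REST-/- replicate 2 was. REST-/- replicate 1 had the highest feeder marker sum, but whether feeder RNA added to its Kcnt1 counts was not tested. The Kcnt1 paralog Kcnt2 (Slick) had 59 and 42 counts in WT against 51 and 35 in REST-/- ESCs. Kcnn4, the intermediate-conductance calcium-activated channel of blood cells and epithelia, had 58 and 53 counts in WT against 71 and 59 in REST-/- ESCs (log2 fold change 0.49, SE 0.31). Of the auxiliary subunits 7 of 16 were tested, with 2 log2 fold changes above and 5 below 0. Kcnab2 encodes the Kv beta 2 subunit, which binds Kv1 channels, and had 130 and 108 counts in WT against 51 and 48 in REST-/- ESCs, or 4.12 ± 0.118 and 2.07 ± 0.137 CPM (SD, n = 2). Its log2 fold change was -0.99 (SE 0.30, adjusted p = 0.654 by the quasi-likelihood test), with an exon overlap with Gm16334 on the same strand.

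Values of some other members follow. Kcnj2 (Kir2.1) had 15 and 12 counts in WT against 9 and 5 in REST-/- ESCs (log2 fold change -0.68, SE 0.49), and its libraries did not overlap between genotypes. The Kv1 group, the channels to which Kcnab2 binds, was sparse: Kcna7 was its highest member, with 41 and 60 counts in WT against 42 and 55 in REST-/- ESCs, and Kcna1 to Kcna6 had no more than 18 counts in any library. Kcnd2 and Kcnd3, the relatives of Kcnd1, had no more than 5. Kcnq3, a further subunit of the M current, had 19 and 42 counts in WT against 25 and 19 in REST-/- ESCs. The small-conductance calcium-activated channel gene Kcnn1 had 137 and 246 counts in WT against 131 and 200 in REST-/- ESCs (log2 fold change 0.051, SE 0.50). Kcnma1, the large-conductance channel gene, had between 14 and 26 counts. Kcnj10 (Kir4.1, the glial inward rectifier) had 70 and 115 counts in WT against 101 and 109 in REST-/- ESCs, and Kcnf1, a silent subunit, had 52 and 40 against 89 and 36, so that in both the genotypes overlapped. The same held for Kcnip3 (DREAM, a calcium-binding partner of Kv4 channels), with 85 and 215 counts in WT against 92 and 139 in REST-/- ESCs. Kcne1 to Kcne4, which modify Kv7 and other channels, had no more than 2 counts each.

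**Figure D3:**
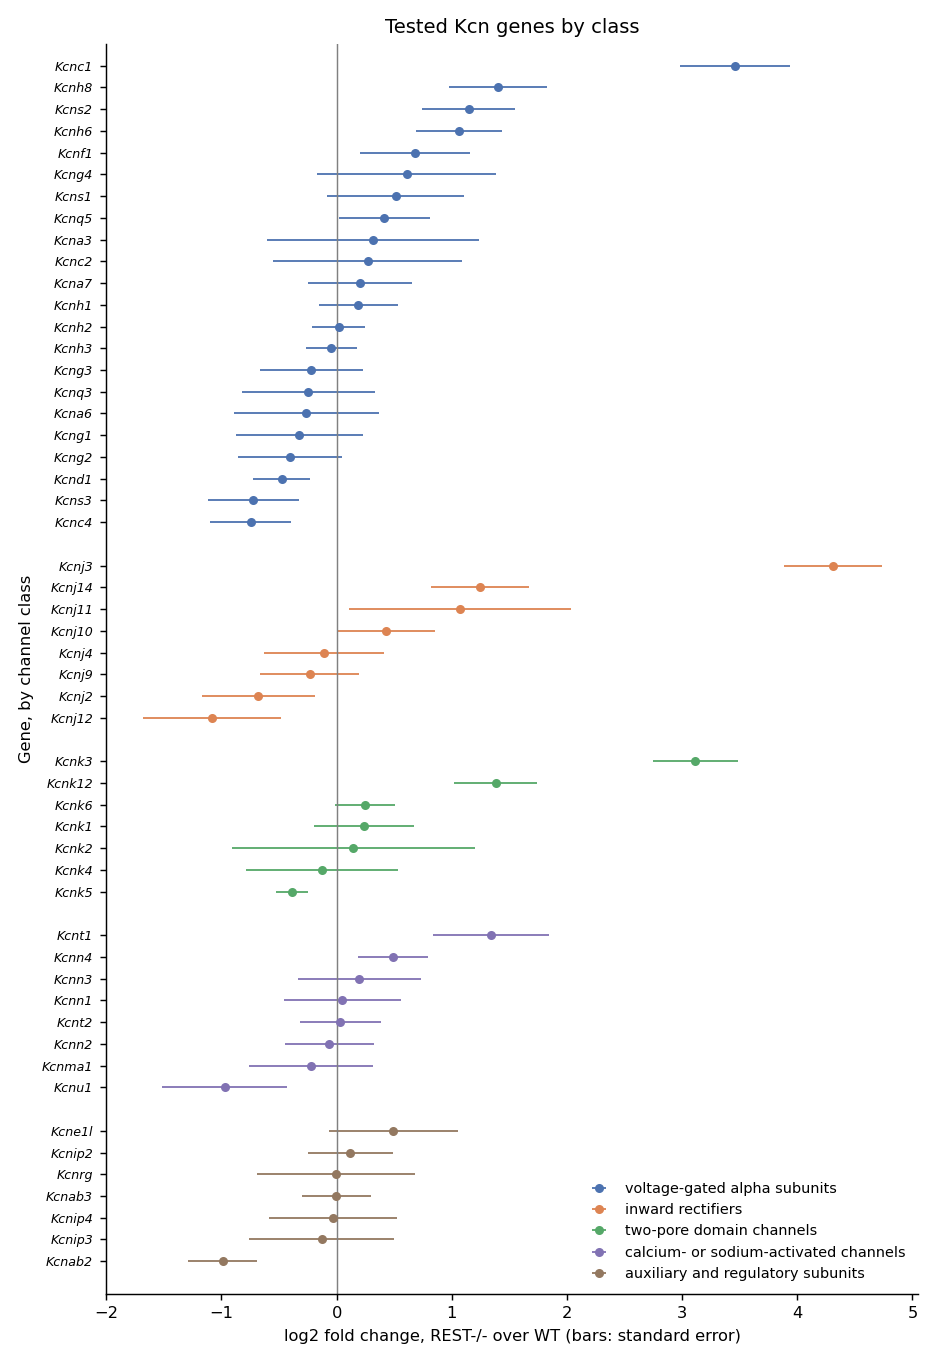
Fitted log2 fold change (REST-/- over WT) of 52 tested Kcn genes, grouped by channel class, with bars of 1 SE. Kcnj3, Kcnc1 and Kcnk3 lie above 3, and most of the others lie between -1 and 1.5.

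REST binds the RE1 element, so the genome was searched for it near these genes. The motif CAGNACCNNGGACAG, of 15 bases with 12 informative positions and N for any base, was sought on both strands of NCBIM37 (mm9), which held 1304 full matches. Among the 55 tested Kcn genes with a position, 6 (10.9%) had a full match within 20 kb of an annotated start site, beside 4.44% of 14159 tested genes with a position, and 2 (3.64%) had one within 1 kb, beside 0.727%. For 5 of the 6 the site is shown with 7 bases on each side, as read 5′ to 3′ on the strand of the match, because these are the full matches nearest to tested Kcn genes. Capitals mark the 12 informative positions.
Kcnk12: ccggcgtCAGcACCgcGGACAGcgcatcg
Kcnt1: cgggactCAGcACCgcGGACAGctccgcc
Kcnab2: ctggattCAGcACCcaGGACAGctcctga
Kcnh2: agggtttCAGcACCtcGGACAGaggcaga
Kcnn4: ccagcgtCAGcACCaaGGACAGagccgct

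The site of Kcnk12 lies 599 bp upstream of its start (chr17:88197919-88197947, plus strand), outside the gene. That of Kcnt1 lies 229 bp downstream of a start in an intron (chr2:25719589-25719617, minus strand), and the 15-base cores of both are identical. Kcnab2 has its site in an intron 1295 bp downstream of a start (chr4:151798645-151798673, minus strand). Those of Kcnh2 (6016 bp, chr5:23863424-23863452, minus strand) and Kcnn4 (10814 bp, chr7:25144454-25144482, plus strand) lie upstream of the gene. A match of letters is a description, not evidence of binding.

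The 2 genes with a site within 1 kb, Kcnk12 and Kcnt1, had log2 fold changes of 1.38 and 1.34. The median over all 103 tested genes with a full match within 1 kb was close to these, at 1.12. Farther away, the log2 fold change was 0.49 for Kcnn4, 0.018 for Kcnh2 and -0.99 for Kcnab2. Over the 6 the median was 0.46, beside 0.11 over the 628 tested genes with a full match within 20 kb. Leaving out WT replicate 1 gave 0.76. With no filter on low counts, which adds untested genes, it was 0.0088. Over the 29 genes with a match at 11 or more positions within 20 kb it was 0.20, beside 0.016 over 6267 tested genes. For the 7 with such a match within 1 kb it was -0.13, beside 0.054 over 875 tested genes. The 49 Kcn genes with no full match within 20 kb had a median of 0.051, beside -0.0047 over all 13531 tested genes without one. The 3 largest differences fell among those 49. Kcnj3 had its nearest full match at 1969462 bp and Kcnk3 at 399701 bp, and Kcnc1 had its nearest at 227763 bp. Kcnc1 also had a match to 11 positions 1605 bp upstream of a start, in an intron (chr7:53676431-53676459, minus strand), with C6G as the mismatch, counted from 1 at the 5′ end of the motif with the motif base first. Its letters are shown because it is the closest match at any of the 3.
Kcnc1: tagatgtCAGaAgCcaGGACAGacaccac

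Of the 35 untested genes 4 had a full match within 20 kb: Kcna10, Kcne2, Kcnj6 and Kcnk10. Kcnk9, which the study examined near a REST site, had 0 counts in all 4 libraries and 3 full matches between 22389 and 22467 bp upstream of its start. They stand close together on the minus strand, site 1 at chr15:72399084-72399112, site 2 at chr15:72399132-72399160 and site 3 at chr15:72399162-72399190, and are printed because a full match here stands beside a gene with no counts.
Kcnk9 site 1: tttttttCAGcACCgaGGACAGtgatcgc
Kcnk9 site 2: ggctcctCAGcACCgtGGACAGcgcctcg
Kcnk9 site 3: gagatttCAGgACCctGGACAGctctcca

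**Figure D4:**
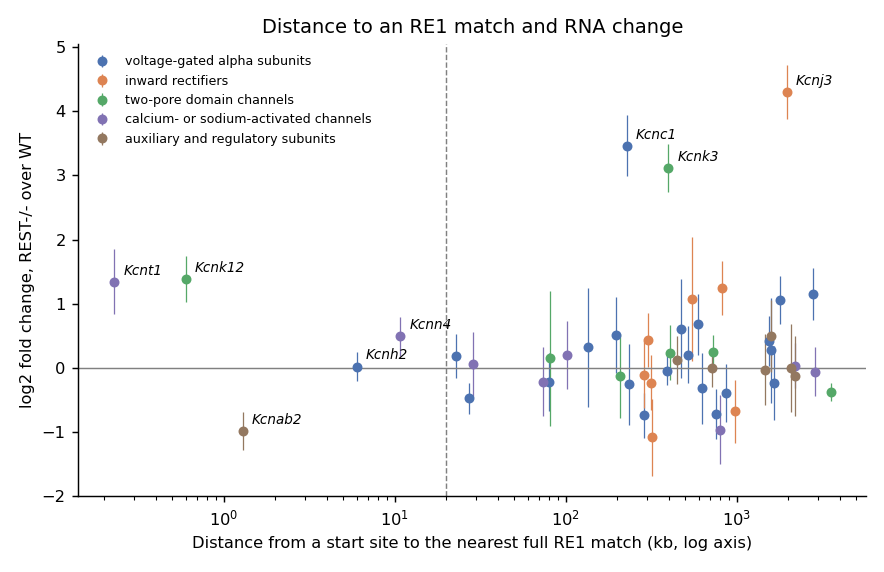
Log2 fold change (REST-/- over WT, bars of 1 SE) of 51 tested Kcn genes with a position, against the distance in kb (log axis) from an annotated start site to the nearest full RE1 match, coloured by class, with a dashed line at 20 kb. The 2 genes nearest a match, Kcnt1 and Kcnk12, lie above 1, Kcnab2 lies below 0, and Kcnj3, Kcnc1 and Kcnk3 lie far to the right of the line.

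Other genes of potassium transport were counted as whole lists. No tested gene of these lists passed an adjusted p of 0.05 in the quasi-likelihood test. At an unadjusted p under 0.05, Hcn3, Pex5l and Slc12a5 were higher and 2 genes were lower, among them Cntnap2, out of 24 tested (beside 3.85% and 2.86% of all genes). Hcn3 and Pex5l passed the adjusted threshold by both exact tests and by DESeq2, and Atp1a4, a pump subunit of sperm, by the exact test with common dispersion alone. Of the 4 Hcn genes, which encode the pacemaker channels that carry sodium and potassium, 3 were tested and all 3 had a log2 fold change above 0. Hcn3 had 156 and 151 counts in WT against 704 and 602 in REST-/- ESCs (log2 fold change 2.35, SE 0.21, adjusted p = 0.106 by the quasi-likelihood test). Of the 17 channel partners 9 were tested, with 5 above and 4 below 0. Pex5l (TRIP8b), the auxiliary protein that sorts Hcn channels, was matched by its identifier to a row that the table lists under the symbol Pex2, and had 7 and 12 counts in WT against 141 and 214 in REST-/- ESCs (log2 fold change 4.48, SE 0.56, adjusted p = 0.147), and Abcc8, the sulfonylurea receptor that pairs with Kcnj11, had 59 and 118 in WT against 157 and 155 in REST-/- ESCs. A channel gene and a partner gene were thus both far above WT for the Hcn pair, whereas Cntnap2, which clusters Kv1 channels on axons, had 118 and 88 counts in WT against 52 and 41 in REST-/- ESCs. For the 7 sodium-potassium pump genes the median was -0.058, and the 5 tested cation-chloride cotransporters one of -0.44, where Slc12a5 (KCC2, the neuronal chloride extruder) alone was above 0, with 60 and 64 counts in WT against 125 and 117 in REST-/- ESCs (log2 fold change 1.23, SE 0.30).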

How the data were processed

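Total RNA from 2 WT and 2 REST-/- ESC libraries was sequenced. Per the labels, the authors processed reads with Subread and featureCounts on mm9, and they deposited whole-number counts per Entrez identifier, without normalization. Versions, annotation and strand setting are not given in the sources used here. The 368 rows without an identifier held no values and were left out. Differential expression was computed with edgeR 4.0.16 in R 4.3.3 (TMM, filterByExpr, quasi-likelihood test with no block, prior count 0.125, Benjamini-Hochberg adjustment over 15444 genes). Standard errors came from the log2 fold change and its F statistic. GENCODE M1 on NCBIM37 (mm9) gave positions, where 89 of the 91 genes matched 1 gene, and Kcnb2 and Kcnh8 did not. A RefSeq name beginning with Kcn was held by 3 further rows under another symbol or none, which were not included. Scripts were tested on simulated data. The members and lists were chosen with earlier results of these data known. Genes were named if called, among the 12 largest in each direction (higher genotype at 0.5 CPM or more on average, libraries not overlapping), among the 8 highest per kb, or tested with a full RE1 match within 20 kb, with Kcnk9 added from the study. Results of some single genes are not reported here, although counts and medians include them. Other genes named are paralogs or partners of these, chosen after their values were seen. Alternatives were other scalings and filters, exact tests, DESeq2 1.42.0, a replicate block, a prior count of 2, another RE1 distance or match, and omission of each library. The floor of 3 counts covers counting error alone, whereas the SD and the standard error also hold the spread between libraries.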

Additional observations from a re-analysis of the deposited data

How the results depend on the processing

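Over 14 alternative settings, the log2 fold changes of the 22 named and tested Kcn genes gave 306 values, of which 274 kept both direction and side of the threshold, 24 newly passed the threshold and 8 changed sign. The sign changes all came from leaving out 1 library, at 4 genes: Kcnk1 (-0.22 to 0.89 over the 4 omissions), Kcnh2 (-0.15 to 0.20), Kcnh3 (-0.19 to 0.085) and Kcnj4 (-0.68 to 0.44). The cause was not tested. The count of Kcn genes called higher, 0 as reported, was 1 without a filter on low counts. That gene was Kcnj3 (1.16% of the 86 Kcn genes then tested, beside 0.237% of all genes). The count was 3 by the exact test with tag-wise or with common dispersion (1.33% and 1.6% of all genes), and 3 by DESeq2 (1.17%). With the replicate number as a block it was 9, with 3 called lower (8.47% and 8.5% of all genes were). Those called higher then included Kcnj3, Kcnc1, Kcnk3, Kcnh8, Kcnk12, Kcnt1 and Kcns2, and those lower were Kcnab2, Kcnj12 and Kcnk5. With a library left out, the lone library is assumed to vary like the pair of the other genotype, so calls are not given for those fits. Deviations of WT replicate 1 and REST-/- replicate 1 from their genotype means correlated at 0.807 across genes, so same-numbered libraries deviated alike. The fit without a block counts this shared part as spread between libraries. The labels name no shared batch, and with 2 pairs whether the numbers mark one was not tested. The median log2 fold change of the tested Kcn genes was 0.037 to 0.45 with a library left out, the highest without WT replicate 2. The median of those with an RE1 match was 0.31 to 0.76 with a library left out, 0.0088 without a filter and 0.20 at 11 or more positions. Within 1 kb it was 1.36 for the 2 genes with a full match, beside 1.12 over 103 tested genes. For the 7 genes with 11 or more positions within 1 kb it was -0.13. Under a minimum of 10 counts in every library, Kcnj3 and Kcnc1 were not tested. Since 50 of the 91 genes were under 1 CPM in both genotypes, depth limits what can be seen of them.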

Other observations

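Of the 35 untested Kcn genes, Kcnq1 (Kv7.1, the cardiac and epithelial channel) had 0 and 2 counts in WT against 3 and 13 in REST-/- ESCs, and Kcnj16 (Kir5.1) had 9 and 5 in WT against 4 and 0 in REST-/- ESCs. Kcnu1 (Slo3, the sperm channel), which was tested but fell under the level required for naming, had 12 counts in each WT library and 4 and 6 in REST-/- ESCs, a log2 fold change of -0.97 (standard error 0.54). These 3 genes were chosen after their values were seen.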
